A study of Mus musculus with 23 samples.

Results

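The 23 hippocampal RNA-seq libraries of the series were divided by their level of Ttr, the gene of transthyretin, into 14 libraries with at least 200 FPKM (high) and 9 libraries with less (low). FPKM are fragment counts scaled to transcript length and to the size of the library. The sets were selected on the Ttr value itself and run across the study's groups, so they are not groups of the study, and the difference in Ttr between the sets is given as a description. All mice were male wild-type C57BL/6J, acquired at 6 weeks of age and kept on AIN93M liquid diets for 16 weeks, with 1 further week of behavioral tests. The Ctrl group (n = 9) received the control diet and the EtOH group (n = 7) an alcohol diet, both with the vehicle CMC-Na at 0.05% by gavage. The EtOH-UA group (n = 7) received the alcohol diet and urolithin A (UA) by gavage at 200 mg/kg/day, a metabolite that gut bacteria make from ellagitannins. The study asked whether UA changes alcohol-induced cognitive and social dysfunction. The high set held 4 Ctrl, 6 EtOH and 4 EtOH-UA libraries and the low set 5 Ctrl, 1 EtOH and 3 EtOH-UA libraries.

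The choroid plexus is a folded, vascular sheet inside the brain ventricles whose epithelium secretes the cerebrospinal fluid. Its cells make transthyretin, which carries thyroxine and retinol, and they release it into the fluid. The plexus of the lateral ventricle lies against the hippocampus. In bulk tissue, fewer cells of a type and less RNA per cell cannot be told apart.

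Ttr spanned 3.88 to 7705 FPKM over the 23 libraries and left a gap around the threshold. The low libraries held 3.88, 9.03, 11.6, 44.4 and 56.1 FPKM in the Ctrl group, 58.4 FPKM in the EtOH group, and 11.3, 45.5 and 70.2 FPKM in the EtOH-UA group. The high libraries held 981, 1592, 2087 and 2914 FPKM in the Ctrl group, 470.2, 1042, 1249, 2359, 2538 and 5628 FPKM in the EtOH group, and 1811, 1832, 3356 and 7705 FPKM in the EtOH-UA group. The library just outside the threshold was thus the EtOH-UA library at 70.2 FPKM and the library just inside it the EtOH library at 470.2 FPKM, a gap of 6.70-fold. The mean was 2540.3 ± 1958 FPKM (SD, n = 14) in the high set and 34.5 ± 25.4 FPKM (SD, n = 9) in the low set. Levels still differed 16.4-fold within the high set and 18.1-fold within the low set. In the high libraries this single gene took 0.143% to 1.90% of the summed FPKM of all genes, and in the low libraries 0.00107% to 0.0209%.

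**Figure D1:**
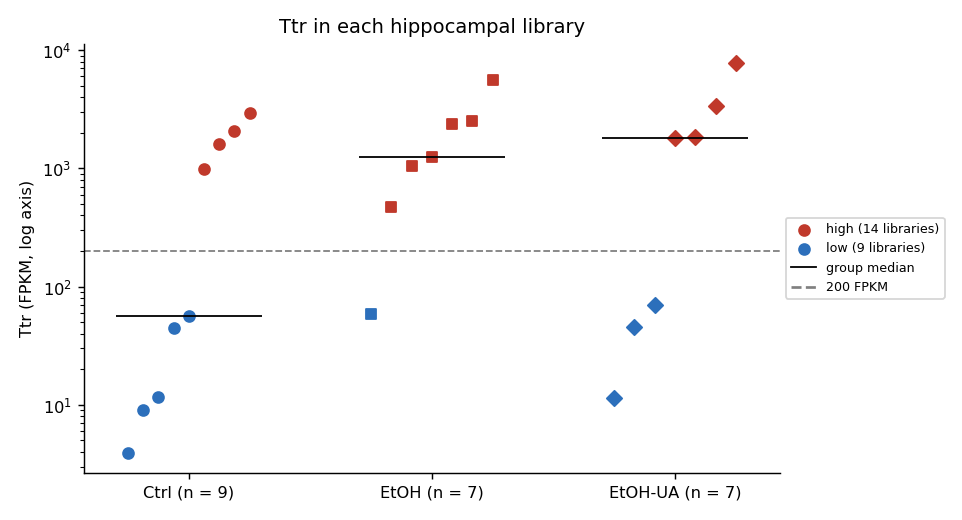
Ttr in FPKM (log axis) in each library, by study group (Ctrl n = 9, EtOH n = 7, EtOH-UA n = 7), with red points for the 14 high and blue points for the 9 low libraries, a black line at each group's median and a dashed line at 200 FPKM. Every group has libraries on both sides of the line, and no library lies between 70.2 and 470.2 FPKM.

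The diets, which come from the labels and were not used in making the sets, were compared in their share of high libraries and in Ttr. A two-sided Fisher-Freeman-Halton exact test of high and low libraries over the 3 groups gave p = 0.320. On the log2(FPKM + 0.1) scale, mean Ttr was 2.99 higher in EtOH than in Ctrl libraries (two-sided exact permutation test, p = 0.0829, adjusted p = 0.249 over the 3 pairs). It was 1.23 lower in EtOH-UA than in EtOH libraries, a difference of -1.23 (exact permutation p = 0.464, adjusted p = 0.464). It was 1.76 higher in EtOH-UA than in Ctrl libraries (exact permutation p = 0.342, adjusted p = 0.464). None of these differences passed the threshold of 0.05.

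The sets overlapped in the measures of the whole library that the table gives. Summed FPKM ran from 327896 to 404609 in the high set (median 335364) and from 330456 to 379518 in the low set (median 346742), and genes above 0 from 17169 to 17413 and from 16996 to 17359. Summed FPKM passed 350000 in 6 libraries, which were the 4 with the lowest Ttr (3.88, 9.03, 11.3 and 11.6 FPKM) and the high libraries at 2538 and 7705 FPKM. Read totals were not used here. From the steps between the lowest values of 28 genes, the median depth was estimated at 16.9 fragments per kilobase for each FPKM, so values near 0.1 FPKM rest on about 1.69 fragments per kilobase.

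Of the genes used to recognise the choroid plexus epithelium, Clic6, Kl, Otx2 and Sostdc1 were all higher in the high libraries. The high and low values of 3 of these 4 did not overlap. All 14 high libraries lay above all 9 low libraries for 0.319% of the 15984 genes fitted. The markers are genes of the same tissue as Ttr, so nothing is read from this count. Clic6, an intracellular chloride channel protein of secretory epithelia (GRCm38 chr16:92498147-92541241), held 0.16, 0.46 and 3.80 FPKM in the low libraries (lowest, median, highest) and 3.54, 7.83 and 27.1 FPKM in the high libraries. The EtOH library at 58.4 FPKM of Ttr had 3.80 FPKM of Clic6, above the 3.54 FPKM of the EtOH library at 470.2 FPKM of Ttr, and the other 13 high libraries lay above all low libraries. Kl, the gene of the membrane and secreted protein klotho, a co-receptor of FGF23 (chr5:150952607-150993817), held 3.37, 4.42 and 6.16 FPKM against 7.55, 15.4 and 44.6 FPKM. Otx2, a homeobox transcription factor that choroid plexus epithelium needs for its development (chr14:48656781-48667644), held 0.03, 0.12 and 1.27 FPKM against 1.49, 2.65 and 10.4 FPKM. Sostdc1, a secreted antagonist of BMP and Wnt ligands (chr12:36314169-36318452), held 0.71, 1.01 and 1.67 FPKM against 2.91, 6.53 and 23.9 FPKM. The gap was narrow for Otx2 and Kl and wide for Sostdc1.

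Within each diet the Otx2 values of the sets did not overlap. In Ctrl libraries Otx2 ran from 0.03 to 0.75 FPKM in the 5 low and from 2.08 to 4.45 FPKM in the 4 high libraries. In EtOH-UA libraries it ran from 0.07 to 1.21 FPKM in the 3 low and from 2.64 to 10.1 FPKM in the 4 high libraries. In the EtOH group the single low library held 1.27 FPKM against 1.49 to 10.4 FPKM in the 6 high ones. Of Clic6, Kl, Otx2, Sostdc1, Kcne2, Folr1 and Enpp2 in the 3 groups, the high and low values overlapped only for Clic6 in EtOH libraries. How many of all genes separated within a diet was not counted, and the EtOH group has a single low library. Nothing is therefore read from these separations.

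A wider set of 49 choroid plexus genes, in 4 lists by role, was higher in the high libraries for every member. The difference between the sets carries no test for these lists, because the libraries were chosen by a gene of the same tissue. The fitted difference, high minus low on log2(FPKM + 0.1) with diet as covariate, had a median of 1.88 over the 49 genes (range 0.33 to 4.34), beside -0.00375 over all 15984 genes fitted. All 14 high libraries lay above all 9 low libraries for 25 of the 49, where this held for 0.319% of all genes fitted, and 42 of the 49 were among the genes called higher, where 1.0% of all genes were. Nothing is read from these counts, since the split used the same contrast. Summed over the 49 genes, FPKM ran from 156 to 219.8 in the low libraries (median 190.8) and from 323 to 1573 in the high libraries (median 549.6).

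**Figure D2:**
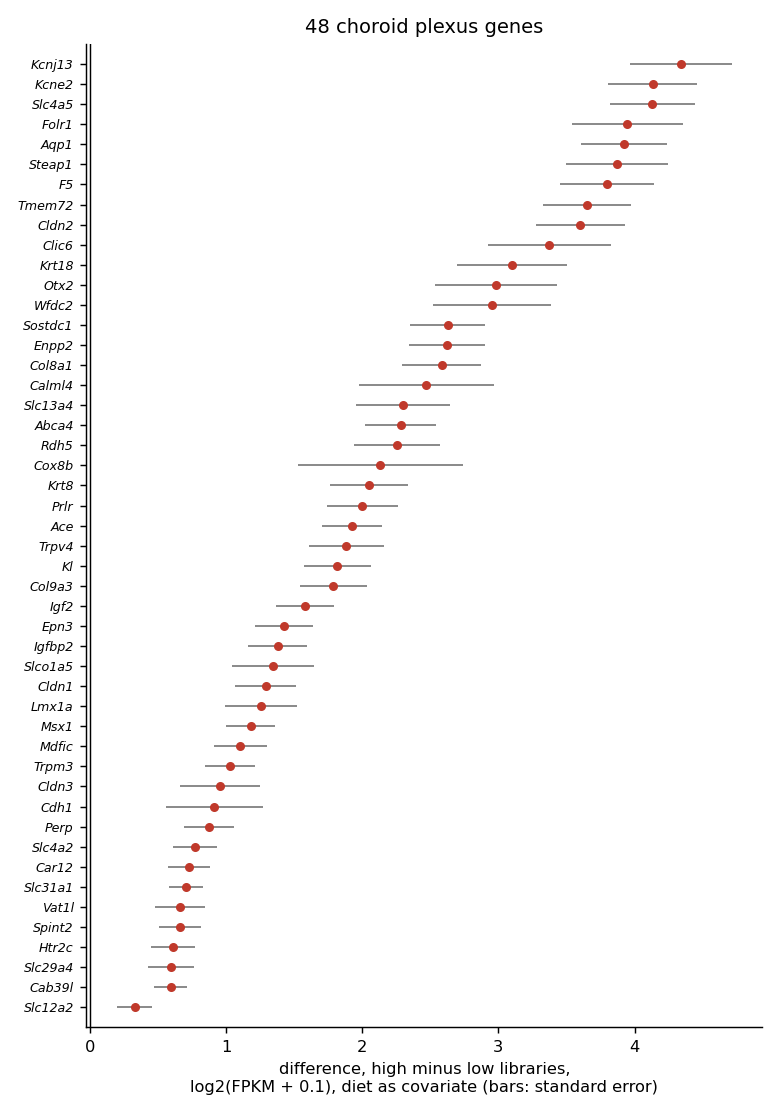
Difference between high and low libraries on log2(FPKM + 0.1), with diet as covariate, for 48 of the choroid plexus genes (points) and its standard error (bars). All points lie to the right of 0, from Slc12a2 at 0.33 to Kcnj13 at 4.34.

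Among genes of ion, water and vitamin transport were those with the 5 largest differences of the 49 and that with the smallest. Kcnj13, an inward rectifier potassium channel, held 0.02, 0.17 and 0.52 FPKM in the low libraries (lowest, median, highest) and 1.83, 4.46 and 18.3 FPKM in the high libraries. Kcne2, a potassium channel subunit of the apical membrane, held 0.24, 0.27 and 0.46 FPKM against 2.05, 5.40 and 25.4 FPKM. Slc4a5, a sodium bicarbonate cotransporter, held 0.02, 0.04 and 0.21 FPKM against 0.74, 2.49 and 9.65 FPKM. The low values of these genes lay near 0, and the gap between the sets was wide for each. The fitted differences were 4.34 ± 0.37 (SE) for Kcnj13, 4.13 ± 0.33 for Kcne2 and 4.13 ± 0.31 for Slc4a5 on the log2 scale. Aqp1, a water channel, differed by 3.92 ± 0.31 and Folr1, the folate receptor that moves folate into the fluid, by 3.95 ± 0.41, again with no overlap. The copper transporter gene Slc31a1 (0.71 ± 0.13) and the carbonic anhydrase gene Car12 (0.73 ± 0.16) differed far less, yet their values did not overlap either. The list had a median difference of 2.08 over 16 genes, and the smallest was that of Slc12a2, the sodium-potassium-chloride cotransporter that other brain cells express too, at 0.33 ± 0.13.

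Among the choroid plexus genes of the lists, the secreted products Enpp2, Igfbp2 and Igf2 had the highest mean levels in the high libraries. Enpp2, the gene of autotaxin, which makes lysophosphatidic acid, held 32.2, 46.6 and 61.3 FPKM in the low libraries and 116, 245 and 836.5 FPKM in the high libraries. Coagulation factor V, F5, had a mean of 0.182 ± 0.115 FPKM (SD, n = 9) in the low and 4.32 ± 3.53 FPKM (SD, n = 14) in the high libraries, a difference of 3.80 ± 0.34 (SE) on the log2 scale. The growth factor gene Igf2 and the binding protein gene Igfbp2, which leptomeningeal and vascular cells express as well, differed by 1.58 ± 0.21 and 1.38 ± 0.22, and for both 1 high library lay within the low values. The median of the 11 genes was 2.47.

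Receptors and enzymes had a median difference of 1.92 over 11 genes. Steap1 differed by 3.87 ± 0.38 and Tmem72, a transmembrane protein, by 3.65 ± 0.32. Ace, the angiotensin-converting enzyme, held 1.94 to 2.58 FPKM in the low and 4.57 FPKM or more in the high libraries, and Prlr, the prolactin receptor, 0.33 to 0.74 FPKM and 1.23 FPKM or more. Htr2c, the serotonin receptor 2C that hippocampal and other neurons also express, overlapped between the sets, with 7.30 to 19.9 FPKM in the low libraries. A single high library lay above that range. The 19.9 FPKM came from the Ctrl library at 56.1 FPKM of Ttr, and the other low libraries held 10.54 FPKM or less. The EtOH library at 2538 FPKM of Ttr held 8.48 FPKM and the other high libraries 12.49 FPKM or more. Among transcription factors and junction genes the median was 1.29 over 11 genes. Cldn2, a claudin that forms a cation-selective pore in leaky tight junctions, differed by 3.60 ± 0.33 and the keratin gene Krt18 by 3.10 ± 0.41. Lmx1a, a homeobox gene of the roof plate from which the plexus grows, held 0.00 to 0.19 FPKM in the low libraries and had a difference of 1.26 ± 0.26.

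Other members of the lists were measured at low to middle levels. Collagen genes of the epithelial matrix, Col8a1 (2.58 ± 0.29, SE, log2 scale) and Col9a3 (1.79 ± 0.25), did not overlap between the sets. Wfdc2, a secreted protease inhibitor gene, differed by 2.95 ± 0.43, but 1 high library held 0.09 FPKM, within the low range of 0.08 to 0.33 FPKM. Calml4, a calmodulin-like protein gene, held 0.08 to 3.73 FPKM in the low libraries, and 10 of the 14 high libraries lay above that range. The sulfate cotransporter gene Slc13a4 differed by 2.30 ± 0.35 and the cation channel gene Trpv4, which responds to osmotic change, by 1.88 ± 0.27, with 13 of 14 high libraries above all low ones for both. Rdh5, a retinol dehydrogenase gene, differed by 2.25 ± 0.32. Cox8b, a cytochrome oxidase subunit gene, held 0.00 to 1.43 FPKM in the low libraries and did not separate the sets, with 7 of 14 high libraries above. Among epithelial junction and keratin genes, Krt8 (2.05 ± 0.28) and Epn3 (1.42 ± 0.21) did not overlap, whereas Cldn3 (0.96 ± 0.29) and Cdh1 (0.91 ± 0.35), with means of 0.461 ± 0.206 and 0.335 ± 0.210 FPKM (SD, n = 14) in the high libraries, did.

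What a low library retained of each gene varied over a wide range. The mean of the low libraries was 2.20% of the mean of the high libraries for Slc4a5, 2.74% for Tmem72, 3.12% for Steap1 and 3.34% for Kcnj13. For the markers it was 10.9% for Clic6, 12.8% for Otx2, 13.2% for Sostdc1 and 25.8% for Kl. At the other end were Trpm3 with 47.1%, Cab39l with 64.6%, Htr2c with 67.4% and Slc12a2 with 77.9%. The median over the 49 genes was 22.8%. These ratios of mean FPKM use no pseudocount.

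**Figure D3:**
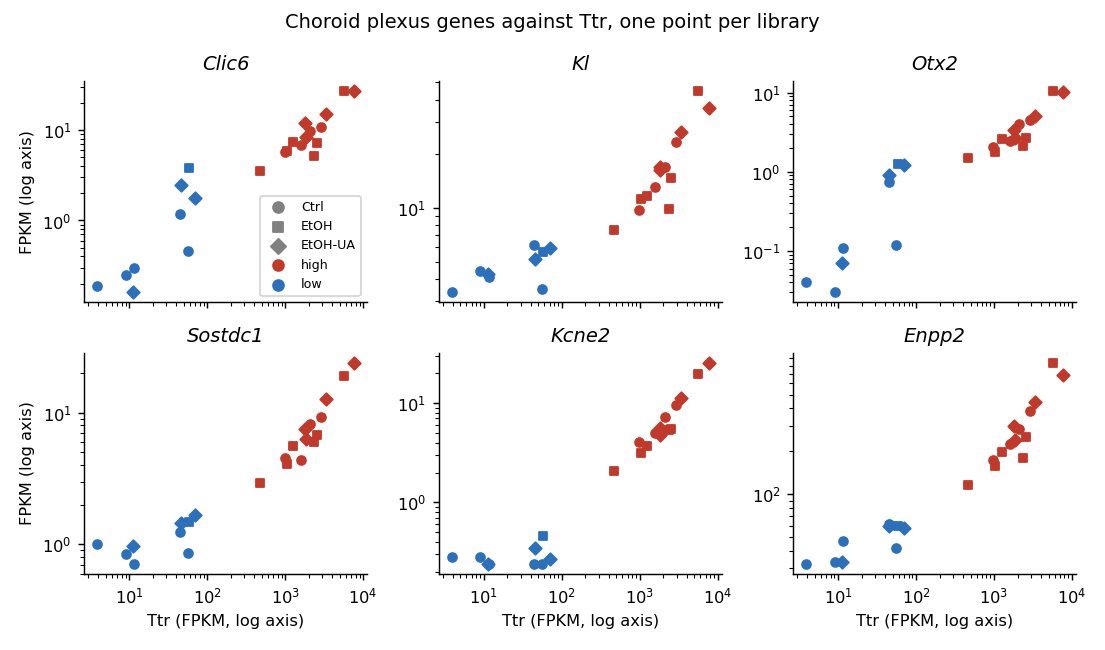
FPKM of Clic6, Kl, Otx2, Sostdc1, Kcne2 and Enpp2 against FPKM of Ttr (both log axes), with 1 point per library, red for high and blue for low, and a shape for each diet. In the 14 high libraries all 6 genes climb with Ttr, whereas Kcne2 runs flat across the 9 low libraries at 0.24 to 0.46 FPKM.

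The order of Ttr within a set was not used in making the split, and it was followed by other choroid plexus genes. In the 14 high libraries the correlation with Ttr on the log2(FPKM + 0.1) scale was r = 0.96 for Kcne2 (Spearman rho = 0.93), 0.95 for Sostdc1 (rho = 0.92), 0.94 for Folr1 (rho = 0.90), 0.90 for Otx2 (rho = 0.89), 0.90 for Kl (rho = 0.85) and 0.89 for Clic6 (rho = 0.77). Of the 12 correlations computed, these 6 had a permutation p of 3e-05 or less for r (100000 permutations, where 1e-05 is the smallest possible) and adjusted p of 6e-05 or less. For rho the adjusted p ran up to 0.0029. The 6 genes were chosen with earlier results of these data known. The p-values here and in the low libraries therefore describe them and are not independent support. Leaving out the 2 libraries farthest from the median of Ttr gave r from 0.79 (Clic6, adjusted permutation p = 0.00378) to 0.93 (Kcne2, adjusted p = 0.00012). Deviations from the diet means gave r from 0.87 to 0.96.

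In the 9 low libraries the genes parted. Otx2 (r = 0.83, rho = 0.92, exact permutation p of r = 0.0116, adjusted p = 0.0174), Clic6 (r = 0.82, rho = 0.83, adjusted p = 0.0174) and Folr1 (r = 0.74, rho = 0.77, adjusted p = 0.0345) followed Ttr. Kl (r = 0.66, rho = 0.55, adjusted exact permutation p = 0.0699), Sostdc1 (r = 0.64, rho = 0.63, adjusted p = 0.0725) and Kcne2 (r = 0.30, rho = 0.12, adjusted p = 0.464) did not pass the threshold. Without the 2 libraries farthest from the median, Folr1 passed (r = 0.85, adjusted exact permutation p = 0.0255), while Clic6 (r = 0.79, adjusted p = 0.0524) and Otx2 (r = 0.75, adjusted p = 0.0598) did not, with 7 libraries in place of 9. With deviations from the diet means, over the 8 libraries of diets with more than 1 low library, Clic6 (r = 0.79, adjusted exact permutation p = 0.0356) and Otx2 (r = 0.78, adjusted p = 0.0383) passed and Folr1 (r = 0.69, adjusted p = 0.0759) did not. The difference between the high and low sets in these correlations was not tested.

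The low libraries were not alike in Otx2. The libraries at 44.4 (Ctrl), 45.5 (EtOH-UA), 58.4 (EtOH) and 70.2 (EtOH-UA) FPKM of Ttr held 0.75, 0.92, 1.27 and 1.21 FPKM of Otx2. The other 5 libraries, which include the Ctrl library at 56.1 FPKM of Ttr, held 0.03 to 0.12 FPKM. Foxj1, the master regulator of motile cilia, which ependymal cells carry, moved in the same libraries. It held 2.34, 1.97, 3.59 and 2.89 FPKM in the first 4 and 0.52 to 1.05 FPKM in the other 5, beside 1.52 to 4.18 FPKM in the high libraries. Folr1, with 0.45 to 1.09 FPKM against 0.04 to 0.19 FPKM, showed the same order. Kcne2 did not separate them, with 0.24 to 0.46 FPKM and 0.24 to 0.28 FPKM. The part of ependymal RNA in these values was not tested. The Ctrl library at 56.1 FPKM thus held more Ttr than the Ctrl library at 44.4 FPKM and less Otx2, Clic6, Kl and Folr1. Sostdc1, Enpp2, Igf2, F5, Slc4a5 and Aqp1 were also lower in it. Kcnj13 (0.36 against 0.19 FPKM), Igfbp2 (10.48 against 7.31 FPKM), Cab39l (11.4 against 10.14 FPKM) and Htr2c (19.88 against 9.03 FPKM) were higher. Kcne2 was 0.24 FPKM in both.

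**Figure D4:**
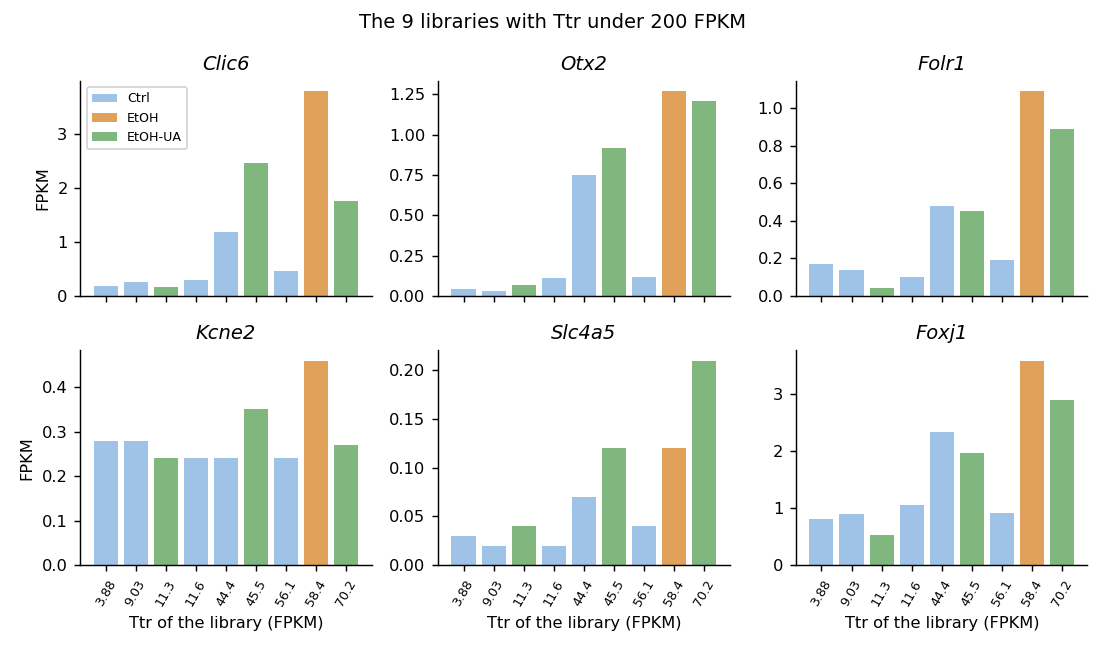
FPKM of Clic6, Otx2, Folr1, Kcne2, Slc4a5 and Foxj1 (bars, axes from 0) in the 9 low libraries, ordered by their Ttr and coloured by diet. Otx2 and Foxj1 are raised in the libraries at 44.4, 45.5, 58.4 and 70.2 FPKM of Ttr and not in that at 56.1 FPKM, while Kcne2 lies between 0.24 and 0.46 FPKM throughout.

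Per 1000 FPKM of Ttr the high libraries held 2.16 to 4.36 FPKM of Kcne2 (median 3.20), 2.06 to 4.38 FPKM of Folr1 (median 3.13), 2.54 to 6.19 FPKM of Sostdc1 (median 3.61), 2.22 to 7.53 FPKM of Clic6 (median 4.61), 0.894 to 3.17 FPKM of Otx2 (median 1.61) and 4.14 to 16.1 FPKM of Kl (median 8.09). The low libraries held 3.84 to 72.2 FPKM of Kcne2, 3.39 to 43.8 FPKM of Folr1, 15.3 to 260.3 FPKM of Sostdc1, 8.20 to 65.1 FPKM of Clic6, 2.14 to 21.8 FPKM of Otx2 and 62.6 to 869 FPKM of Kl. The divisor is the Ttr value that made the split, so the small Ttr of the low libraries raises and spreads these ratios, and the sets are not compared by them. Of the high libraries, those with a summed FPKM over 350000 held 2.06 and 2.07 FPKM of Folr1, below the 2.45 to 4.38 FPKM of the other 12. For Kl, Enpp2, Clic6 and Sostdc1 both lay within the range of the other 12, and for Kcne2 they held 2.16 and 3.30 FPKM beside 2.25 to 4.36 FPKM.

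Promoters of choroid plexus genes are shown because the members moved together and Otx2, a factor that binds the core TAATCC, moved with them. RefSeq promoters (GRCm38.p6) were found for 39 of the 49 genes, 55 starts in all, and the 250 bases before each start were searched for TAATCC and its reverse complement GGATTA. The letters were present in 4 of the 55 (7.27%), 1 start each of Abca4, Ace, Otx2 and Vat1l, and in 6.25% of all 32851 promoters, so the share was near that of all promoters. The Otx2 window with the letters lay wholly in annotated exons of Otx2. Those of Abca4 and Vat1l lay before a start within the gene's own coordinates. Shown here is the part of the window outside annotated exons of the gene for Abca4 and Ace, with the motif in capitals, and for the marker Kl, in which the letters did not occur.
Abca4 (chr3:122044210-122044442, plus strand): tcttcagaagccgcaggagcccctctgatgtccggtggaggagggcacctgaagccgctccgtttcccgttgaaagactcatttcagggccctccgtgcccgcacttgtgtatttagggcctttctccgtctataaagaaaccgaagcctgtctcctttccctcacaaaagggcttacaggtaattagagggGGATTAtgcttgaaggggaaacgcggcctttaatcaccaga
Ace (chr11:105967698-105967944, plus strand): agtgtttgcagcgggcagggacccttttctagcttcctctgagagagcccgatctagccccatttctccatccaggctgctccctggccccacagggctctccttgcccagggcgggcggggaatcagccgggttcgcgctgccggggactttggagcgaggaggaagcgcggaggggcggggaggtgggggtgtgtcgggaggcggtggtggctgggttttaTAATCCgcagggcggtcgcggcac
Kl (chr5:150952357-150952606, plus strand): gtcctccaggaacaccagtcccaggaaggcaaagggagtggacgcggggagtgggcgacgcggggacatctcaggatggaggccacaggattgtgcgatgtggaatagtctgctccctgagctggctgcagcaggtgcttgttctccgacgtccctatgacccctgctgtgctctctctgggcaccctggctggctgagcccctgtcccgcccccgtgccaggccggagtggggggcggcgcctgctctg

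Abca4, a lipid transporter best known from photoreceptors, held 0.19 to 0.51 FPKM in the low and 0.88 FPKM or more in the high libraries, with a difference of 2.28 ± 0.26 (SE, log2 scale), while the difference of Ace was 1.92 ± 0.22 and that of Kl 1.82 ± 0.25. A match is a description of the letters and not a binding site.

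Across all genes the high libraries differed from the low in few genes and nearly always by higher levels. limma called 160 genes higher (1.0% of 15984) and 4 lower (0.025%) at an adjusted p under 0.05, and the adjusted p-values that follow come from the same fit. They measure association with the Ttr split and not the effect of a treatment. Without adjustment 856 genes were higher and 359 lower at p under 0.05. Of the 160 genes, 118 were on no choroid plexus list. The values of all 14 high libraries lay above those of all 9 low libraries for 51 genes (0.319%), 26 of them on no such list, and in no gene did all lie below. The 160 became 57 without the 6 libraries with a summed FPKM over 350000, and 55 genes were in both sets. They became 85 with ependymal genes as a further covariate, 82 of them shared. In Ctrl libraries alone 107 genes were higher, 82 of them shared, in EtOH-UA libraries alone 19, all 19 of them shared, and in EtOH libraries alone 0. The EtOH group has 1 low library, which the fit assumed to vary like the others.

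The 12 higher genes named here from outside the choroid plexus lists are those with the smallest adjusted p in this contrast, and 8 of them had a mean of at least 1 FPKM only in the high libraries. Ecrg4, which encodes the secreted precursor augurin, held 0.13, 1.10 and 2.74 FPKM in the low libraries (lowest, median, highest) and 5.63, 16.5 and 74.1 FPKM in the high libraries. The sets did not overlap, and the difference was 4.10 ± 0.44 (SE, log2 scale, adjusted p = 3.57e-06). Mfrp, a membrane frizzled-related protein gene known from the retinal pigment epithelium, held 0.08, 0.10 and 0.18 FPKM against 0.78, 1.82 and 6.75 FPKM (difference 3.36 ± 0.29, adjusted p = 1.26e-07). Lbp, the gene of lipopolysaccharide-binding protein, held 0.25, 0.45 and 2.08 FPKM against 2.19, 4.03 and 11.6 FPKM (difference 2.48 ± 0.33, adjusted p = 7.65e-05). Its highest low value, in the EtOH library at 58.4 FPKM of Ttr, lay just under its lowest high value.

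Among the others were the transporter genes Slc16a8, a lactate and proton cotransporter, with a difference of 2.27 ± 0.29, and the glucose transporter gene Slc2a12, with 2.15 ± 0.25. The collagen gene Col8a2 differed by 2.86 ± 0.35, the semaphorin gene Sema3b by 2.14 ± 0.27, the heparan sulfate sulfatase gene Sulf1 by 1.75 ± 0.25 and Pcolce, an enhancer of procollagen processing, by 1.48 ± 0.21. Cdkn1c, an inhibitor of cyclin-dependent kinases, differed by 1.30 ± 0.20, Prr32 by 3.17 ± 0.39 and Wdr86 by 2.06 ± 0.26. The adjusted p of these 9 genes ran from 8.62e-06 (Slc2a12) to 0.000364 (Cdkn1c). Overlap between the sets was seen for Wdr86 (13 of 14 high libraries above all low libraries) and Pcolce (12 of 14). The genes were selected on these p-values, which therefore describe them and lend no further support. In Ctrl libraries alone all 12 passed (limma adjusted p from 0.000104 for Prr32 to 0.0176 for Sulf1). In EtOH-UA libraries alone Mfrp (3.90, adjusted p = 0.00812) and Slc2a12 (2.58, adjusted p = 0.0294) passed. In EtOH libraries alone, with 1 low library, the differences ran from 0.82 (Cdkn1c) to 2.89 (Mfrp). These libraries are among those that selected the genes, so the fits within a diet lend no further support either.

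The high and low libraries overlapped for all 4 lower genes. Tspan13, a tetraspanin gene, held 115.8, 128 and 153 FPKM in the low libraries and 100.1, 114 and 123 FPKM in the high libraries, a difference of -0.23 ± 0.05 (adjusted p = 0.0156). For this gene 10 of the 14 high libraries lay below all low libraries. Kcnip1, which encodes a subunit of A-type potassium channels, differed by -0.33 ± 0.07 (adjusted p = 0.0229), Lst1, a transcript of leukocytes, by -0.88 ± 0.20 (adjusted p = 0.0229) and Egfl6, a secreted protein with EGF repeats, by -0.41 ± 0.10 (adjusted p = 0.0491). None of these 4 passed in Ctrl libraries alone (differences from -1.20 to -0.26, adjusted p from 0.138 to 0.251), without the 6 libraries of high summed FPKM (-0.83 to -0.18, adjusted p from 0.0957 to 0.504) or with ependymal genes as covariate (-0.81 to -0.17, adjusted p from 0.0632 to 0.188), fits with fewer libraries or a further term. Leaving out single libraries changed the count of 4 to 1 (without the EtOH-UA library at 11.3 FPKM of Ttr), 2 (without the Ctrl library at 9.03 FPKM), 7 (without the EtOH library at 470.2 FPKM) or 11 (without the EtOH-UA library at 7705 FPKM). In the other fits the count lay between 3 and 6. Tspan13 lost its call in 0 of the 23 such fits and Egfl6 in 19. Kcnip1 lost it without the libraries at 9.03, 11.3, 2087 and 2914 FPKM of Ttr (adjusted p from 0.0517 to 0.0739) and Lst1 without those at 11.3 and 981 FPKM (0.0537 and 0.0505).

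**Figure D5:**
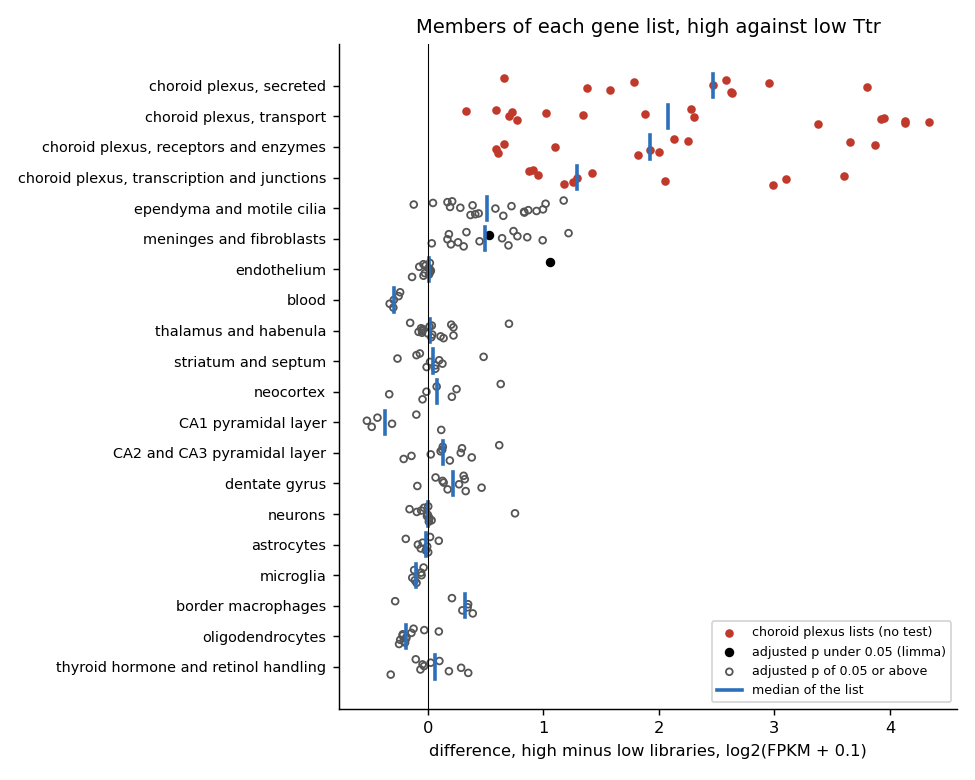
Difference between high and low libraries on log2(FPKM + 0.1) for members of the 20 gene lists, with red points for the choroid plexus lists (no test), black points for other genes with an adjusted p under 0.05 (limma), open points for the rest and a blue line at each list's median. The choroid plexus medians lie between 1.29 and 2.47, those of ependyma and meninges near 0.5 and the others between -0.37 and 0.32.

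Of the markers of ependyma, meninges and endothelium, few passed the test. Of 20 genes of ependyma and motile cilia, 0 passed (adjusted limma p of 0.0740 or more). An unadjusted p under 0.05 was found for 12, and 19 had a positive difference, with a median of 0.51. Of all 15984 genes fitted, 856 were higher and 359 lower at that unadjusted level, a smaller share, and 1.0% were called higher. Their summed FPKM ran from 26.0 to 65.5 in the low libraries (median 31.6) and from 34.5 to 68.2 in the high libraries (median 49.5). Tekt1, a tektin of ciliary microtubules, held 0.69, 1.13 and 2.54 FPKM in the low and 1.53, 2.12 and 3.98 FPKM in the high libraries. Of 16 genes of meninges and fibroblasts, 1 passed, Islr, a cell surface protein gene of mesenchymal cells (0.53 ± 0.13, adjusted p = 0.0358), and all 16 differences were positive, with a median of 0.49. The call of Islr was lost in 12 of the 23 fits that left out a library (difference 0.45 to 0.54, adjusted p up to 0.109), 8 without a Ctrl and 4 without an EtOH-UA library. The most abundant meningeal gene, Ptgds, the prostaglandin D synthase that oligodendrocytes express too, held 150.1, 253 and 497 FPKM in the low and 189.8, 371 and 842 FPKM in the high libraries (adjusted p = 0.308). Among 13 endothelial genes 1 passed, Esm1, a secreted proteoglycan of endothelium (1.06 ± 0.25, adjusted p = 0.0389), at a level of 0.0878 ± 0.0630 FPKM (SD, n = 9) in the low and 0.281 ± 0.154 FPKM (SD, n = 14) in the high libraries, and the median of the list was 0.0084. Its low level is under the filter of 0.1 FPKM, which it passed through the high libraries, so its call is not read as support. Esm1 lost its call in 14 of the 23 fits, with a difference of 0.98 to 1.13 in them (adjusted p up to 0.113). How far adjacent tissue moved with the choroid plexus genes in the libraries was not tested.

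Genes of the hippocampus itself did not pass in either direction. All 23 libraries held the pyramidal and granule cell genes, with a summed 85.2 to 202 FPKM over 6 CA1 genes and 110 to 214 FPKM over 10 dentate gyrus genes. Of 6 CA1, 11 CA2 and CA3 and 10 dentate gyrus genes, 0 passed, and the median differences were -0.37, 0.13 and 0.22. Spink8, a protease inhibitor gene of CA1, held 18.8, 26.9 and 32.8 FPKM in the low and 5.49, 19.1 and 27.4 FPKM in the high libraries (-0.53 ± 0.20, adjusted p = 0.385). The sets overlapped, although 7 of 14 high libraries lay below all low libraries. Mpped1, a metallophosphoesterase gene, differed by -0.31 ± 0.11 (adjusted p = 0.373). An unadjusted limma p under 0.05 was found for 3 of the 6 CA1 genes, beside 856 higher and 359 lower of all 15984 genes. Of 18 thalamic and habenular, 10 striatal and septal and 7 neocortical genes, 0 passed, with medians of 0.02, 0.04 and 0.08.

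Glial, neuronal and blood genes were likewise without a call. Medians were 0.0027 over 12 neuronal genes, -0.016 over 9 astrocyte genes, -0.10 over 8 microglial genes, 0.32 over 6 genes of border macrophages, -0.19 over 12 oligodendrocyte genes and -0.29 over 5 blood genes. S100b, a calcium-binding protein gene of astrocytes, had the lowest p of its list (-0.19 ± 0.06, adjusted p = 0.269). Myelin basic protein, Mbp, spanned 707 to 1411 FPKM in the low and 605 to 1162 FPKM in the high libraries (adjusted p = 0.794).

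Genes that handle the cargo of transthyretin, thyroid hormone and retinol, had a median difference of 0.06 over 12 genes. Stra6, the receptor that brings retinol into cells, held 1.99, 2.66 and 4.0 FPKM in the low and 2.95, 3.56 and 4.64 FPKM in the high libraries. The sets overlapped, with 4 of 14 high libraries above all low libraries (0.35 ± 0.12, adjusted p = 0.244).

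With the Ttr split in the model or without it, limma called no gene between diets. For EtOH minus Ctrl the count was 0 in both fits, and genes with an unadjusted p under 0.05 numbered 486 without and 307 with the split. For EtOH-UA minus EtOH the counts were 524 and 425 and for EtOH-UA minus Ctrl 492 and 480, with 0 called throughout. The median difference of the 49 choroid plexus genes in EtOH minus Ctrl was 0.86 without the split and 0.015 with it, and 49 and 29 genes respectively had a positive difference. In EtOH-UA minus EtOH it was -0.13 and 0.42, with 13 and 46 genes positive, and in EtOH-UA minus Ctrl 0.67 and 0.42, with 46 genes positive in both. These contrasts share their Ctrl or EtOH libraries. Over all genes fitted the median in EtOH minus Ctrl was -0.00295 without the split and -0.00239 with it. The split was made on a gene of the same tissue and was uneven between diets. Nothing is therefore read from the change in the choroid plexus medians and counts. A test of whether the split differed between the Ctrl and EtOH-UA groups called 0 genes (limma interaction, 551 at an unadjusted p under 0.05, smallest adjusted p = 0.987).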

How the data were processed

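Hippocampal RNA of 23 mice was sequenced. The authors deposited 1 table of FPKM to 2 decimals for 19733 genes, made from reads aligned to mm10 (GRCm38). The methods name Bowtie2 and RSEM and poly(A)+ RNA; the submitters' processing notes name HISAT2 2.1.0, Bowtie2 2.2.5, RSEM 1.2.8, StringTie and DESeq, and the labels total RNA. FPKM are not counts, and the authors' count test was therefore not repeated. Columns were assigned to groups by name, and 0 columns were left out.

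Libraries were divided at 200 FPKM of Ttr, a split chosen by the outcome of a single gene. The members and lists were chosen with earlier results of these data known. Genes other than Ttr with a mean of at least 0.1 FPKM (15984) were fitted as log2(FPKM + 0.1) with limma 3.58.1 in R 4.3.3 (eBayes with trend, diet as covariate), with Benjamini-Hochberg adjustment over all genes and a threshold of 0.05. The difference understates the change of low genes because of the pseudocount. Correlations and permutation tests used SciPy 1.17.1 in Python 3.11.15. The labels give separate samples, and p-values measure the spread between them. The limma script was tested on simulated data.

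Named were the choroid plexus genes, the 12 higher and the lower genes of smallest adjusted p that passed (mean of at least 1 FPKM, on no choroid plexus list) and, from each other list, up to 3 members with the smallest adjusted p and the 2 most abundant. The 20 lists were written by hand. Gene coordinates follow RefSeq on GRCm38, and depth was estimated from the steps between low values of genes with 1 GENCODE transcript (tolerance 0.006 FPKM). Alternatives were other pseudocounts, filters, thresholds, scalings and weights, single diets and each library left out. Covariates for summed FPKM and for ependymal genes, and a fit without the 6 libraries of high summed FPKM, were chosen after seeing the data. The results of some genes are not reported here.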

Additional observations from a re-analysis of the deposited data

Results flagged for a closer look

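In 6 of 95 sets of values of a gene within a diet and a Ttr set, 1 library stood far from the others by Dixon's criterion, where chance gives about 1 in 20, or 4.75. In 5 of these 6 sets it was the high EtOH library at 5628 FPKM of Ttr, among 6 libraries. It held 27.1 FPKM of Clic6 with the next at 7.34 FPKM (a gap of 0.644 of the range), 44.6 FPKM of Kl with the next at 14.7 FPKM (0.627), 10.4 FPKM of Otx2 with the next at 2.65 FPKM (0.710), 18.3 FPKM of Kcnj13 with the next at 4.21 FPKM (0.644) and 52.4 FPKM of Igf2 with the next at 22.95 FPKM (0.638). In the low Ctrl set of 5, the library at 44.4 FPKM of Ttr held 0.75 FPKM of Otx2 with the next at 0.12 FPKM (0.720). All these gaps are shares of the range on the log2(FPKM + 0.1) scale, not of the range in FPKM.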

How the results depend on the processing

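No paired analysis was possible because the columns carry no replicate numbers, and the replicate block was not run. The count of 160 genes higher became 97 with a filter at a mean of 1 FPKM, which tests fewer genes (all 97 shared), 334 with log2 Ttr as a continuous term, 57 without the 6 libraries of high summed FPKM, 85 with the ependymal covariate, 19 in EtOH-UA and 0 in EtOH libraries alone. With a library left out it ran from 108 to 185. The count of 4 lower genes became 10 without diet, 37 with continuous Ttr, 13 with quantile normalization, 22 with array weights, 23 with summed FPKM as covariate, 1 in EtOH and 1 in EtOH-UA libraries alone, and 0 without the 6 libraries or with the ependymal covariate; with a library left out it ran from 1 to 11. The diet counts with the split, 0 throughout, ran from 0 to 1 with a library left out. For EtOH-UA minus EtOH the gene appeared without either EtOH-UA library at 70.2 or 3356 FPKM of Ttr, and for EtOH-UA minus Ctrl without these or the Ctrl library at 2087 FPKM. Of 6 genes in the low set, 3 followed Ttr and 1 without the 2 farthest libraries. In EtOH libraries alone the direction reversed for Cox8b (-0.68), Tekt1 (-0.16), Mlf1 (-0.42) and Foxj1 (-0.54), in EtOH-UA libraries alone for Stra6 (-0.025), and with diet deviations for Kcne2 in the low set (r = -0.11). The causes were not tested. Of the remaining values of single genes and correlations, 3282 kept direction and side of the threshold (or moved by less than 1 SD for choroid plexus genes), 125 lost and 35 gained a call, and 96 moved further. Genes below 1 FPKM rest on few fragments.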
